A study of Homo sapiens with 24 samples.

Results

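The genes described here are 2 nuclear-retained long non-coding RNAs (lncRNAs), MALAT1 and NEAT1, and 5 genes for proteins of the paraspeckle, NONO, SFPQ, PSPC1, RBM14 and HNRNPK. They were taken as a set by their known place in the nucleus, and each was matched by its Ensembl identifier, so that the 7 members are 7 of the 37416 genes listed in every library. All 7 passed the filter on low counts and are among the 21352 genes tested. The study lowered ADAR1, the enzyme that converts adenosine to inosine in double-stranded RNA, in 4 lines of human triple-negative breast cancer, namely MDAMB468, MDAMB231, HCC1806 and BT549. A lentivirus brought in either shADAR1, a short hairpin directed at ADAR1, or the control hairpin shNT, with 3 libraries labelled as biological replicates in each of the 8 groups and 24 in all. Both arms were exposed to virus for 24 h with protamine sulfate at 10 µg/ml, then to 2 µg/ml puromycin for 72 h, so the controls carry a virus and passed the same selection. Total RNA was depleted of ribosomal RNA before sequencing, a preparation that does not rely on a poly(A) tail. The number of hairpins against ADAR1 and their sequences are not given in the sources used here, and no label says whether the replicates came from separate infections, so p-values measure the spread between these libraries.

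MALAT1 is an abundant unspliced transcript that gathers in nuclear speckles, the compartments that hold splicing factors. NEAT1 is the RNA scaffold of paraspeckles, bodies that form beside the speckles and hold RNA and protein in the nucleus. The locus makes a short polyadenylated transcript and a long one, and the long one builds the body. NONO, SFPQ and PSPC1 form the DBHS family of RNA-binding proteins, which bind NEAT1 as dimers, and a complex containing NONO was described as a nuclear anchor for RNA rich in inosine. RBM14 is a prion-like paraspeckle protein, and HNRNPK favours the long NEAT1 transcript by hindering the 3′ processing of the short one.

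Both lncRNAs are single-block genes on the forward strand of chromosome 11. In the coordinates of the deposited tables, which equal those of GENCODE 29 on GRCh38 for NEAT1 and not for MALAT1, NEAT1 (ENSG00000245532) spans chr11:65422774-65445540, or 22767 bases. MALAT1 (ENSG00000251562) spans chr11:65497762-65506516, or 8755 bases. The 3′ ends of the long transcripts are known to be made by RNase P, which cuts before a tRNA-like RNA, and to be held by a triple helix of U-rich and A-rich tracts in place of a poly(A) tail added after cleavage. The 100 bases of GRCh38 that end at each of these cuts are shown because they are the element the 2 members share. Capitals mark TTTCTTTT, TTTGCTTTT and AAAGCAAAA, searched on the transcript strand only.
MALAT1, chr11:65506017-65506116, forward strand: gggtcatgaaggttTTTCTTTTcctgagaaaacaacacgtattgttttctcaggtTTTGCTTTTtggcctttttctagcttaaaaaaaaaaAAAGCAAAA
NEAT1, chr11:65445441-65445540, forward strand: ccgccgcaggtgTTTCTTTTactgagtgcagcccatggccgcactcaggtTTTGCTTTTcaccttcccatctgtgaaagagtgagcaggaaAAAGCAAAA

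Each window held the 3 motifs once, in the same order, with AAAGCAAAA as its last bases. Over the last 100 bases of the 203677 GENCODE 29 transcripts of at least that length, TTTCTTTT was found in 1.25%, TTTGCTTTT in 0.241% and AAAGCAAAA in 0.276%. All of them together were found in 1 transcript, NEAT1-202, the long NEAT1 transcript. The annotated ends of MALAT1 lie downstream of its cut, so its own window is not among those ends. In the deposited tables the 57 bases that follow the MALAT1 window, the tRNA-like RNA at chr11:65506117-65506173, have a row of their own.
Small RNA row inside MALAT1, forward strand: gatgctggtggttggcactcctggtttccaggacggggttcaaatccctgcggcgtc
That row had a count of 0 in all 24 libraries, while MALAT1 itself had between 69311 and 2094448 counts. The 3 rows nested in MALAT1, among them this one and an antisense row, ENSG00000270117, cover 548 bases or 6.26% of its length, and all were at 0. The 4 rows nested in NEAT1 cover 484 bases or 2.13% of its length, and these were at 0 as well. The level of the small RNA therefore could not be measured from these counts, and how reads over 2 rows were assigned is not given in the sources used here.

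The short NEAT1 transcripts end much earlier. GENCODE 29 lists 8 NEAT1 transcripts, of which 7 end at or before position 65426513, within the first 3740 bases of the gene, and 1 reaches 65445540. The 184 bases up to that position are shown because the choice between short and long NEAT1 is made there, with the polyadenylation hexamer AATAAA and each TGTA, the core of the site bound by the cleavage factor subunit NUDT21, in capitals.
NEAT1, chr11:65426330-65426513, forward strand: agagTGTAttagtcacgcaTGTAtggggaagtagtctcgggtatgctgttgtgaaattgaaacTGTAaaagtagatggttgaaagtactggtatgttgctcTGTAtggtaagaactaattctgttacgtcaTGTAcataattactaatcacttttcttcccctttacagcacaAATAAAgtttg
The window held TGTA 5 times and AATAAA 1 time on the transcript strand. Among the last 184 bases of 198591 transcripts of at least that length, 0.843% held TGTA at least 5 times and 30.0% held AATAAA. The window opens just before its first TGTA, and the cut-off of 5 is its own count. The 0.843% therefore does not test how rare such a cluster is. The deposited tables have 1 row for NEAT1, so every NEAT1 value here sums the short and the long transcripts, and a change from one to the other would not be seen in it.

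The protein members lie on 5 chromosomes and are spliced. SFPQ (ENSG00000116560) lies on chromosome 1 at 35176378 to 35193148, NONO (ENSG00000147140) on X at 71283192 to 71301168, HNRNPK (ENSG00000165119) on 9 at 83968083 to 83980616, RBM14 (ENSG00000239306) on 11 at 66616582 to 66627347 and PSPC1 (ENSG00000121390) on 13 at 19674752 to 19783019. Few counts fell in rows that overlap them. The readthrough gene RBM14-RBM4 had 2202 counts over all libraries, 1.36% of those of RBM14, and the pseudogene RN7SL166P inside PSPC1 had 670, 0.982% of those of PSPC1.

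Total counts ran from 10370645 to 97218217 per library. ADAR, the targeted gene, had 276 to 527 CPM (counts scaled to library size, here with the trimmed mean of M-values, TMM) in the 12 shNT libraries and 54.6 to 173 in the 12 shADAR1 libraries, with no overlap in any line. Its log2 change, shADAR1 against shNT, ran from -2.19 in MDAMB231 through -1.94 (BT549) and -1.59 (HCC1806) to -1.43 in MDAMB468 (edgeR, adjusted p from 6.83e-09 to 3.18e-05). In such bulk libraries, less RNA in every cell and loss of it from a fraction of the cells cannot be told apart. Of 7 epithelial markers, all were under 1 CPM in BT549, whereas the lowest group mean in HCC1806 and MDAMB468 was 187 CPM. The mesenchymal markers VIM, FN1, CDH2 and ZEB1 were at 2308, 2471, 241 and 128 CPM in BT549 shNT. In MDAMB231 shNT they were at 4304, 540, 0.254 and 132 CPM. Of the fibroblast markers in BT549 shNT, LUM was at 58.5 CPM, and PDGFRA and DCN were at 2.05 and 2.16 CPM. MDAMB231 had KRT8 at 467 CPM in shNT but CDH1 at 0.0739 CPM. The oestrogen receptor gene ESR1 was at 19.0 CPM in HCC1806 shNT, the highest of the lines, and no group mean of a leukocyte or endothelial marker was above 4.51 CPM.

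MALAT1 took a larger share of the RNA counted than almost any other gene. It held between 0.436% and 2.87% of a library's total count, with a median of 1.27%. It ranked first of all genes in every BT549 and MDAMB468 library, first or second in HCC1806, and between 4 and 14 in MDAMB231. NEAT1 held 0.0355% to 0.148% of the total and ranked between 46 and 366. On the per-length scale of the deposited RPKM (CPM divided by gene length), the median level over the 24 libraries was 1452 for MALAT1, 105.0 for HNRNPK, 99.6 for NONO, 70.6 for SFPQ, 34.99 for RBM14, 33.9 for NEAT1 and 21.0 for PSPC1. The RPKM of NEAT1 divides by all 22767 bases, most of which the short transcripts do not cover.

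**Figure D1:**
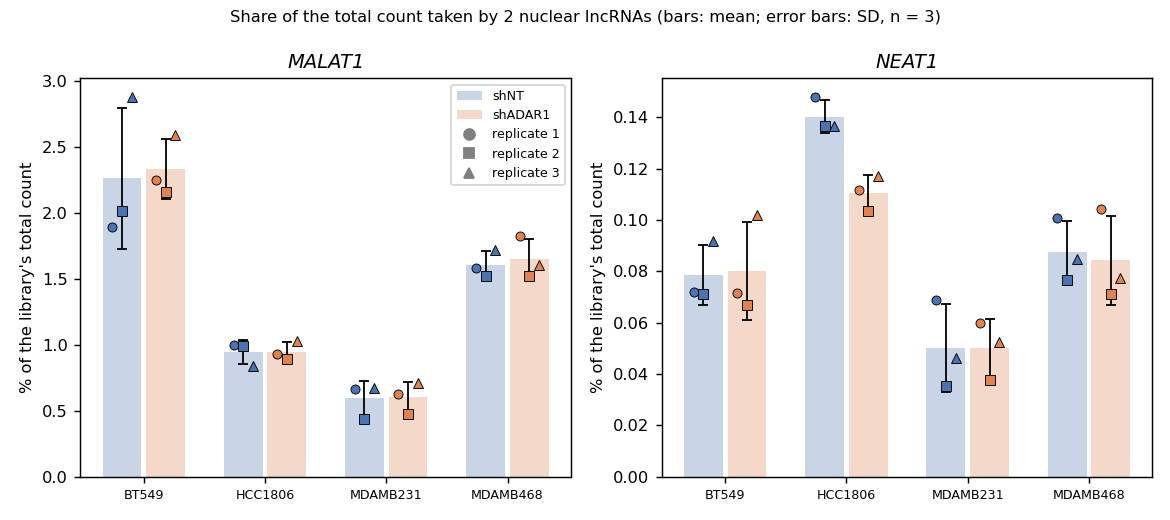
Share of the library's total count (%) taken by MALAT1 and NEAT1, by cell line and hairpin; bars are means, error bars SD over 3 libraries, and each symbol is 1 library. MALAT1 is highest in BT549 and lowest in MDAMB231, NEAT1 is highest in HCC1806, and the 3 HCC1806 shADAR1 libraries lie below the 3 shNT libraries for NEAT1 only.

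Under the control hairpin the lines held very different amounts of the lncRNAs. MALAT1 stood at 23340 ± 4568 CPM (SD, n = 3) in BT549, 14675 ± 1102 in MDAMB468, 10006 ± 1176 in HCC1806 and 5878 ± 1239 in MDAMB231, a ratio of 3.97 between the highest and the lowest line. All 6 pairs of lines differed for MALAT1 by edgeR's quasi-likelihood test, against 63.5% (BT549 and HCC1806), 56.5% (BT549 and MDAMB231), 61.0% (BT549 and MDAMB468), 59.0% (HCC1806 and MDAMB231), 62.9% (HCC1806 and MDAMB468) and 61.8% (MDAMB231 and MDAMB468) of all genes tested. The smallest of these differences was 0.55 (log2) between MDAMB468 and HCC1806 (edgeR, adjusted p = 0.00259), and the largest 1.99 between BT549 and MDAMB231 (edgeR, adjusted p = 1.33e-10). NEAT1 followed another order. It stood at 1485 ± 83.4 CPM (SD, n = 3) in HCC1806, 812 ± 88.1 in BT549, 799 ± 125 in MDAMB468 and 496 ± 150 in MDAMB231, a ratio of 3.00. BT549 and MDAMB468 did not differ beyond their spread for NEAT1 (log2 difference 0.02, 95% interval -0.37 to 0.41), and the other 5 pairs did.

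The 2 lncRNAs were therefore in different proportion in each line. A library held 25.4 to 32.3 MALAT1 counts per NEAT1 count in BT549, 15.7 to 21.3 in MDAMB468, 9.72 to 14.6 in MDAMB231 and 6.16 to 8.76 in HCC1806. These ranges do not overlap between lines. Per length, the RPKM of MALAT1 was 16.0 to 84.0 times that of NEAT1 over the 24 libraries.

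Of the DBHS genes, NONO and PSPC1 varied between the lines and SFPQ less so. NONO stood at 838 ± 49.8 CPM (SD, n = 3) in BT549 shNT, 536 ± 11.2 in MDAMB468, 396 ± 32.8 in MDAMB231 and 385 ± 18.6 in HCC1806. The last 2 did not differ beyond their spread (log2 difference, HCC1806 minus MDAMB231, -0.04, 95% interval -0.20 to 0.12), and the other 5 pairs passed edgeR's test. PSPC1 was low in HCC1806, at 30.2 ± 4.53 CPM (SD, n = 3), against 72.1 ± 6.07 in MDAMB231, 63.0 ± 4.67 in BT549 and 62.4 ± 0.272 in MDAMB468. The 3 pairs with HCC1806 passed and the other 3 did not. DESeq2 put BT549 below MDAMB231 for PSPC1 as well (adjusted p = 0.0468). SFPQ was highest in MDAMB468, at 669 ± 28.9 CPM (SD, n = 3), against 517 to 573 in the other lines, and the 3 pairs with MDAMB468 passed. Without HCC1806 replicate 3, the pair of HCC1806 and MDAMB468 did not (edgeR, adjusted p = 0.0831), nor did it with no filter on low counts (edgeR, adjusted p = 0.0661).

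RBM14 had the smallest ratio between the highest and the lowest line of the 7 members. RBM14 lay between 129 and 159 CPM in the 4 shNT group means, a ratio of 1.23, and 2 of 6 pairs passed edgeR's test. The pair of BT549 and MDAMB468 did not pass for RBM14 (edgeR, adjusted p = 0.0787), and passed, lower in BT549, with DESeq2 (adjusted p = 0.0364), with edgeR under 3 other scalings or filters (adjusted p from 0.0152 to 0.0413) and without BT549 replicate 1 (edgeR, adjusted p = 0.0391). Its difference of 0.21 (log2) between HCC1806 and MDAMB231 (edgeR, adjusted p = 0.0351) was lost under other settings (adjusted p = 0.0720 with DESeq2, and 0.0565 to 0.162 with edgeR) and when shNT replicate 2 or 3 of either line was left out (edgeR, adjusted p from 0.0517 to 0.116). HNRNPK stood at 616 ± 18.9 CPM (SD, n = 3) in HCC1806, 595 ± 36.8 in MDAMB231, 497 ± 39.0 in BT549 and 436 ± 31.3 in MDAMB468, and 4 of 6 pairs passed. The HNRNPK difference between BT549 and MDAMB231 was lost without BT549 replicate 3 (edgeR, adjusted p = 0.0736) or MDAMB231 replicate 2 (adjusted p = 0.0538). In all, 28 of the 42 differences between shNT lines passed edgeR's test for the 7 members. Of all genes tested, 56.5% to 63.5% passed in a pair of lines, so the members were near that share.

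**Figure D2:**
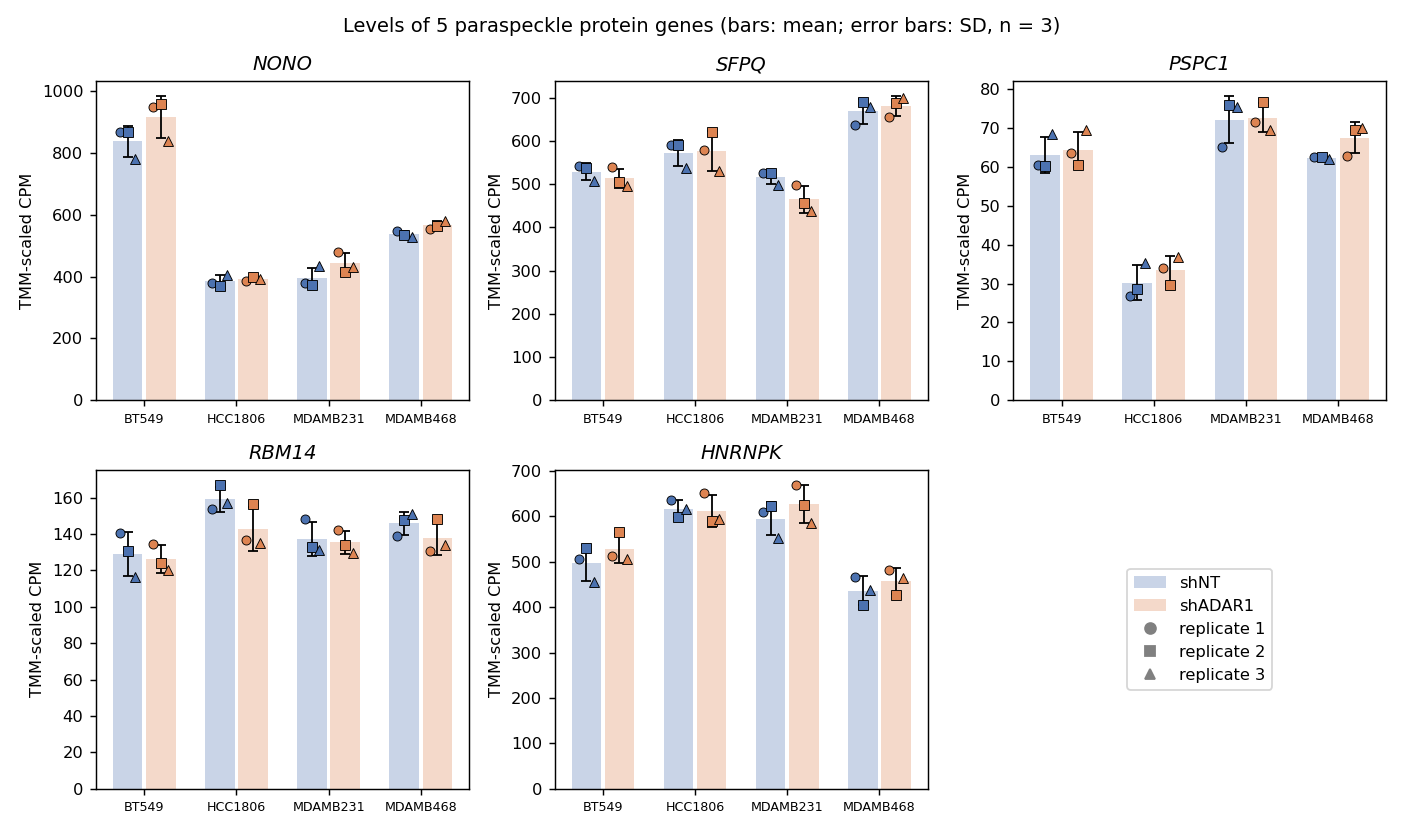
Level of the 5 paraspeckle protein genes (TMM-scaled CPM, each panel on its own axis from 0) by cell line and hairpin; bars are means, error bars SD over 3 libraries, and each symbol is 1 library. NONO is highest in BT549, SFPQ in MDAMB468, and PSPC1 is lowest in HCC1806 under both hairpins.

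Without the block, no member passed for the knockdown of ADAR1, and few of all genes did. With edgeR and p-values adjusted by Benjamini-Hochberg over all genes tested, 0 of 7 members passed in BT549 (0.473% of all genes passed), 0 in HCC1806 (0.0468%), 0 in MDAMB231 (2.01%), 0 in MDAMB468 (0.0375%) and 0 in the average of the 4 lines (2.96%). DESeq2 called 0 as well in each of these. At an unadjusted p under 0.05, edgeR had 0 members in each line and 1 in the average, NONO, while DESeq2 had 1 in MDAMB231 and 1 in the average. The 28 fitted changes of a member in a line lay between -0.36 and 0.16 (log2). The 2 arms overlapped in 25 of these 28 comparisons; of all genes tested, 14.7% had arms without overlap in BT549, 14.2% in MDAMB231 and 7.58% in HCC1806, and in MDAMB468 6.69% were higher and 4.30% lower without overlap. With the replicate number as a block, 1 member passed in HCC1806 (2.10% of all genes), 1 in MDAMB231 (11.4%), 2 in the average (13.2%) and 0 in BT549 (5.14%) and MDAMB468 (1.66%). Same-numbered libraries of the 2 arms deviated together from their group means, and these blocked values are given below where they change a call.

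**Figure D3:**
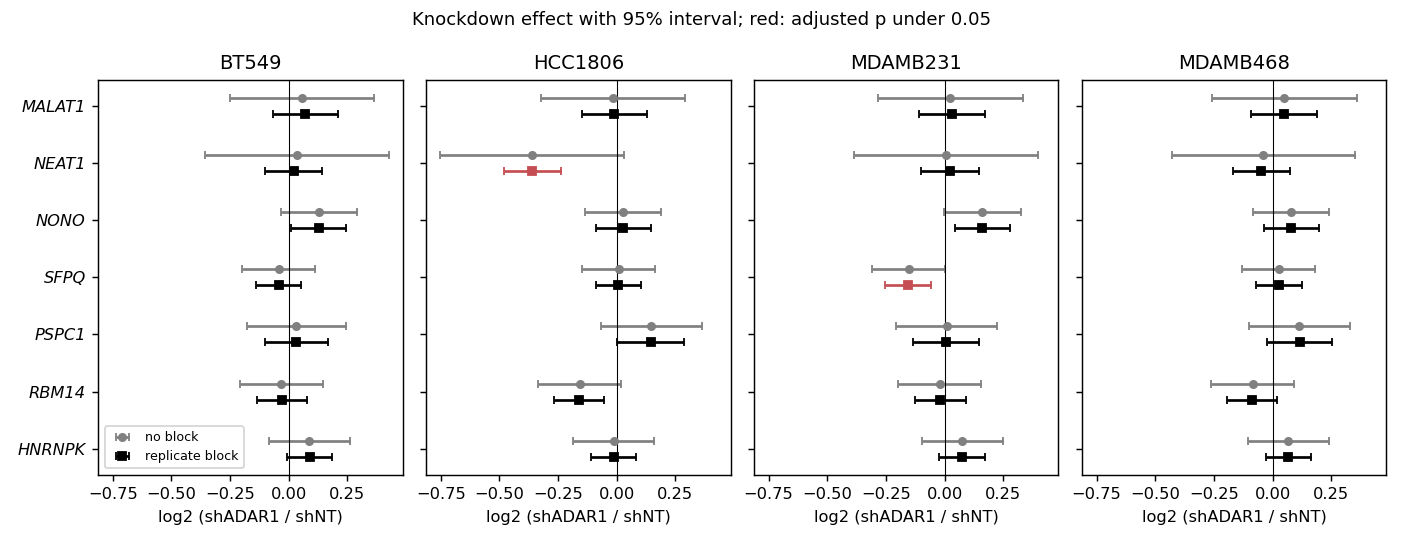
Log2 change, shADAR1 against shNT, of each member in each line with its 95% interval, fitted without a block (grey circles) and with the replicate number as a block (squares, red where the adjusted p is under 0.05). The intervals without a block all include 0, and the blocked NEAT1 value in HCC1806, -0.36, and the blocked SFPQ value in MDAMB231, -0.16, are the only red ones.

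MALAT1 did not pass in any line. In BT549 it stood at 20077.5, 21382 and 28561 CPM in shNT replicates 1 to 3 and at 23549, 23103 and 26172 in shADAR1, and replicate 3 was the highest library of both arms. In HCC1806 the values were 10659, 10712 and 8648 in shNT and 9776, 9603 and 10326 in shADAR1, which overlap. In MDAMB231 they were 6395, 4465 and 6775 in shNT and 6267, 4798 and 6867 in shADAR1. Replicate 2 was the low library of both MDAMB231 arms. In MDAMB468 they were 14654, 13585 and 15788 in shNT and 16826.5, 13749 and 15017 in shADAR1. The fitted log2 change of MALAT1 was 0.06 in BT549, 0.05 in MDAMB468, 0.02 in MDAMB231 and -0.02 in HCC1806, each with an SE of 0.149, and 0.03 on average (95% interval -0.13 to 0.18). Its share of the total count, which needs no scaling, differed by 0.03 (log2) between the arms (exact permutation test within lines over 160000 assignments, two-sided, p = 0.681, and 0.681 adjusted over 3 such results). MALAT1 was higher in 7 of 12 same-numbered pairs.

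NEAT1 was lower in HCC1806 shADAR1 than in HCC1806 shNT, and its arms overlapped in the other lines. In HCC1806 it stood at 1571, 1477 and 1405 CPM in shNT replicates 1 to 3 and at 1172, 1118 and 1178 in shADAR1. Every shADAR1 library was below every shNT library there, as for 3.20% of all genes tested in that line. The difference was -22.1%, or -0.36 (log2, SE 0.189), and did not pass without the block (edgeR, adjusted p = 1.00, 95% interval -0.75 to 0.03). That SE came from 1 fit over the 8 groups, not from the HCC1806 libraries alone. The SD in HCC1806 was 83.4 CPM on a mean of 1485 in shNT and 33.3 on 1156 in shADAR1. In MDAMB231 it was 150 on 496 in shNT and 109 on 497 in shADAR1. With the replicate block the same change, -0.36 (SE 0.0586), passed (edgeR, adjusted p = 0.00162, 95% interval -0.48 to -0.24). The same-numbered pairs changed by -0.42, -0.40 and -0.25. Leaving out the first pair gave -0.33 (edgeR with block, adjusted p = 0.0635), the second -0.34 (adjusted p = 0.0269) and the third -0.39 (adjusted p = 0.00928), so the call was lost without replicate 1.

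The values of the other lines were as follows. BT549 had 764, 757 and 913 CPM in shNT and 751, 715 and 1030 in shADAR1. MDAMB231 had 658, 363 and 465 in shNT and 598, 382 and 511 in shADAR1. MDAMB468 had 932, 686 and 778 in shNT and 962, 645 and 726 in shADAR1. In each of these lines the replicates kept their order from one arm to the other. The fitted log2 changes of NEAT1 were 0.04, 0.0055 and -0.04 in BT549, MDAMB231 and MDAMB468, each with an SE of 0.189. The direction in MDAMB231 turned with the scaling, to -0.0089 with median-ratio size factors.

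**Figure D4:**
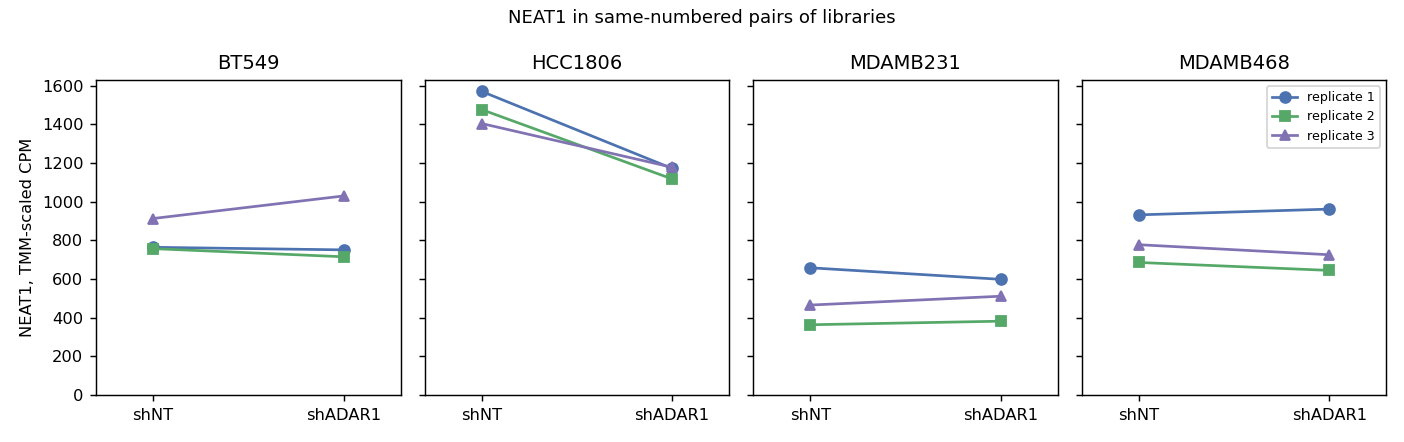
NEAT1 level (TMM-scaled CPM, axis from 0) in shNT and shADAR1, with lines joining libraries of the same replicate number, 1 panel per cell line. All 3 HCC1806 lines slope down, from 1405 to 1571 down to 1118 to 1178, and in the other panels the shNT and shADAR1 levels overlap.

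The difference of the NEAT1 effect between the lines was tested by itself. Without the block, the joint test that the 4 effects are equal gave F = 0.942 (edgeR, adjusted p = 1.00), and 0 of 7 members passed it (0.0234% of all genes), also at an unadjusted p under 0.05 and by DESeq2. With the block it gave F = 9.70 (edgeR, adjusted p = 0.0148), and NEAT1 was the only member to pass (4.69% of all genes). That call was kept in 10 of 12 fits that left out 1 pair and lost without HCC1806 replicate 1 (edgeR with block, F = 5.77, adjusted p = 0.105) or HCC1806 replicate 2 (F = 5.998, adjusted p = 0.0883). The average change of NEAT1 over the lines was -0.09 (SE 0.0944; edgeR, adjusted p = 0.819) without the block and -0.09 (SE 0.0293; edgeR, adjusted p = 0.0448) with it. The blocked call of the average survived leaving out a pair in 4 of 12 fits, with adjusted p up to 0.136 in the others.

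Within a library, NEAT1 relative to MALAT1 depends on neither depth nor scaling. The log2 ratio changed by -0.35 in HCC1806, -0.05 in BT549, -0.0081 in MDAMB231 and -0.10 in MDAMB468. The arms did not overlap in HCC1806 for this ratio and overlapped elsewhere, and it was higher in shADAR1 in 2 of 12 same-numbered pairs. The mean change of the ratio was -0.13 (exact permutation test within lines, two-sided, p = 0.101, and 0.303 adjusted over 3). The share of NEAT1 alone changed by -0.09 (exact permutation test, p = 0.412, and 0.617 adjusted over 3). Within a single line, 3 libraries against 3 cannot go below p = 0.1 in such an exact test.

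NONO was higher on average under shADAR1 by a small amount, which passed only with the block (13.2% of all genes passed so). In BT549 it stood at 867, 867 and 781 CPM in shNT replicates 1 to 3 and at 951, 960 and 838 in shADAR1. In MDAMB231 it stood at 381, 373 and 433 in shNT and at 481, 415 and 431 in shADAR1. In MDAMB468 it stood at 549, 534 and 527 in shNT and at 555, 564 and 582 in shADAR1, where the arms do not overlap. HCC1806 had 380, 370 and 406 in shNT and 386, 399.9 and 393 in shADAR1, which overlap. NONO was higher in 10 of 12 same-numbered pairs, as at least 10 were for 8.58% of all genes. The average log2 change was 0.10 (SE 0.0393; edgeR, adjusted p = 0.241) without the block and 0.10 (SE 0.0280; edgeR, adjusted p = 0.0197) with it, a level 7.15% higher. The blocked call was kept in 10 of 12 fits that left out a pair and lost without BT549 replicate 2 (edgeR with block, adjusted p = 0.0526) or HCC1806 replicate 2 (adjusted p = 0.0614). Same-numbered deviations correlated less for NONO than for any other member (r = 0.23 over the 12 pairs).

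In MDAMB231, SFPQ, the partner of NONO, was lower in shADAR1 and passed only with the block (11.4% of all genes passed so). It stood there at 527.1, 525.6 and 498.9 CPM in shNT replicates 1 to 3 and at 499.1, 457.0 and 439.2 in shADAR1. The arms touch at the first shADAR1 and the third shNT library, and each pair was lower in shADAR1. The log2 change was -0.15 (SE 0.0749; edgeR, adjusted p = 0.437) without the block and -0.16 (SE 0.0468; edgeR, adjusted p = 0.0336) with it. It was called without replicate 1 (edgeR with block, adjusted p = 0.0235), and not without replicate 2 (0.223) or replicate 3 (0.102). In the other lines the fitted change of SFPQ lay between -0.04 and 0.03, and the arms overlapped. The difference of the SFPQ effect between lines did not pass (edgeR with block, adjusted p = 0.286).

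PSPC1, the third DBHS gene, was higher in 11 of 12 same-numbered pairs, as at least 11 were for 3.93% of all genes. In MDAMB468 the 3 shNT libraries lay at 62.1 to 62.6 CPM and the shADAR1 libraries at 62.9, 69.6 and 70.1, without overlap. In HCC1806 it stood at 26.7, 28.6 and 35.3 in shNT and at 33.9, 29.7 and 36.9 in shADAR1. The log2 change was 0.15 in HCC1806 and 0.12 in MDAMB468, and 0.08 on average (95% interval -0.03 to 0.18), and none passed with or without the block (edgeR, adjusted p for the average 0.159 with it and 0.616 without).

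RBM14 and HNRNPK passed for no knockdown effect, with or without the block. RBM14 was lower in 9 of 12 pairs, a count for which the share of all genes was not taken. Its largest change was in HCC1806, where it stood at 154, 167 and 157 CPM in shNT and at 137, 157 and 135 in shADAR1. That change was -0.16 (SE 0.0853; edgeR, adjusted p = 1.00, and 0.128 with the block). The average for RBM14 was -0.07 (95% interval -0.16 to 0.02; edgeR, adjusted p = 0.516, and 0.0657 with the block). HNRNPK was higher in 10 of 12 pairs, as at least 10 were for 8.58% of all genes. Its average change was 0.05 (95% interval -0.03 to 0.14; edgeR, adjusted p = 0.677, and 0.145 with the block), and its arms overlapped in every line.

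By the median over the groups, the lncRNAs varied more between replicates than the protein genes did. The coefficient of variation within a group had a median over the 8 groups of 18.2% for NEAT1 and 10.97% for MALAT1, against 4.38% for SFPQ, 5.39% for NONO, 6.27% for HNRNPK, 6.34% for RBM14 and 7.25% for PSPC1. The same median was 7.28% over the 4739 tested genes with a mean of at least 50 CPM. The order did not hold in every group: NEAT1 had its lowest value, 2.88%, in HCC1806 shADAR1, and PSPC1 reached 15.0% in HCC1806 shNT. MALAT1 and NEAT1 deviated from their group means together, with Pearson's r of 0.73 over the 24 libraries, whose deviations share a group mean by threes. Replicate 2 of MDAMB231 was the low library of both arms for MALAT1 and for NEAT1, and replicate 3 of BT549 the high one. The MDAMB231 replicate 2 libraries also had the largest share of counts in structural RNA rows, 4.96% and 5.00%, against 2.93% to 3.55% in the other libraries of that line, and the part of this in the low lncRNA levels was not tested. SFPQ and RBM14 also deviated together (r = 0.73), and SFPQ and PSPC1 in opposite directions (r = -0.56). Same-numbered libraries of the 2 arms shared these deviations to differing degrees: r over the 12 pairs was 0.90 for NEAT1, 0.83 for HNRNPK, 0.81 for SFPQ, 0.75 for RBM14, 0.71 for MALAT1, 0.57 for PSPC1 and 0.23 for NONO.

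**Figure D5:**
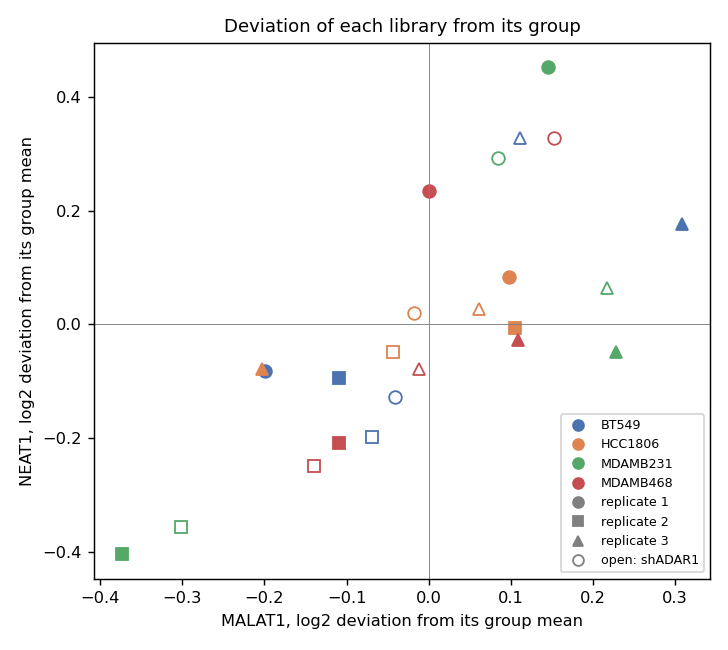
Deviation of each library from its group mean (log2) for MALAT1 (horizontal) and NEAT1 (vertical); colours are cell lines, shapes replicate numbers, and open symbols shADAR1. The points rise from the 2 MDAMB231 replicate 2 libraries at the lower left (r = 0.73). At the upper right are BT549 replicate 3, MDAMB231 replicate 1 and the shADAR1 library of MDAMB468 replicate 1. For NEAT1 both arms of a replicate lie near each other (r = 0.90 over the 12 pairs).

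Over the 8 group means, MALAT1 ran with NONO (r = 0.88) and NEAT1 ran against PSPC1 (r = -0.89), while MALAT1 and NEAT1 had r = 0.37. These values describe 4 lines seen under both hairpins and carry no test. Among 11766 genes with a mean of at least 5 CPM, the 3 whose group means were most like those of each member had r of 0.997 or more for MALAT1 (FBXO31, PALMD and DIRAS1). For NEAT1 they were SEC61A1, NOC2L and URB2, with r between 0.988 and 0.991. They were SELENON, OGT and ZMAT2 for NONO, PTBP3, HECA and SLC44A3 for SFPQ, and CEP44, VPS13B and MCOLN2 for PSPC1. For HNRNPK they were HBEGF, ANXA2 and PLIN2. RBM14, which differed least between lines, had the lowest values, from 0.933 to 0.946, for ERCC3, SELENOK and ABT1. OGT lies on the X chromosome, as NONO does.

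Few other paraspeckle proteins passed either, as was so for all genes. Of 30 listed, all tested, 1 fell in the average over lines by edgeR's test (2.96% of all genes passed it) and 0 rose, with a median log2 change of 0.02, equal to that over all genes tested (0.02). The one that fell was UBAP2L, an RNA-binding protein also found in stress granules, at -0.15 (SE 0.0367; edgeR, adjusted p = 0.0234), and its fitted change was below 0 in all 4 lines. With the block 2 rose and 2 fell (13.2% of all genes passed so), among them RBM3 (0.10) and SRSF10 (0.11), which rose and were named after their values were seen, and UBAP2L. Of 20 genes for nuclear speckle proteins and for proteins that bind or process MALAT1, 0 passed in the average without the block (2.96% of all genes passed). By edgeR 3 had an unadjusted p under 0.05, and the median was -0.02, while DESeq2 called 2, PNN and SON, both lower. With the block (13.2% of all genes passed so) 1 rose, SRSF3 (0.10), and 4 fell, PNN (-0.12), METTL16 (-0.11), SON (-0.11) and HNRNPC (-0.09), also named after their values were seen. METTL16 is known to bind the MALAT1 triple helix, and SON is a core speckle protein. NUDT21, named here for the TGTA motif shown above, had -0.08 (edgeR, adjusted p = 0.389, and 0.0659 with the block).

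Of 12 known regulators of NEAT1, 1 fell in the average, the histone deacetylase gene HDAC3 at -0.17 (SE 0.0429; edgeR, adjusted p = 0.0296), and 0 rose, against 2.96% of all genes called. In the single lines 0 of the 12 passed without the block. With the block 2 rose in HCC1806 (2.10% of all genes), 2 rose and 3 fell in MDAMB231 (11.4%), 0 passed in BT549 and MDAMB468, and 1 rose and 1 fell in the average (13.2%). CARM1, whose product methylates NONO and is known to promote export of RNA with inverted Alu repeats, had 0.15 (edgeR, adjusted p = 0.184, and 0.00193 with the block) and was named after its value was seen. Of 11 tested neighbours of the lncRNA genes on chromosome 11, 0 passed in the average by edgeR (2.96% of all genes passed) or DESeq2. By edgeR 1 had an unadjusted p under 0.05. With the block (13.2% of all genes) 1 rose, SLC25A45 (0.45), named after its value was seen, and 1 fell. Of 9 genes for proteins or transcripts tied to inosine-bearing or retained RNA, 1 fell in the average (2.96% of all genes passed). That gene was STAU1, which encodes a protein that binds double-stranded RNA, at -0.25 (SE 0.0370, edgeR, adjusted p = 0.000156). STAU1 also fell in MDAMB231 alone, by 0.44 (edgeR, adjusted p = 0.000991). Of 17 other nuclear lncRNAs listed, 7 were matched and 6 tested. In the average 0 of them passed by edgeR (2.96% of all genes did), also at an unadjusted p under 0.05, or by DESeq2.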

How the data were processed

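RNA-seq of 24 libraries was deposited as 1 table per library with a count, a CPM and an RPKM for each gene. Per the submitters' processing notes, STAR, featureCounts of Subread, bcl2fastq and edgeR were used; the genome build and the strand setting are not given in the sources used here. The deposited count is whole reads per gene, the CPM deposited by the authors is the count scaled to the library total, and the RPKM by the authors divides that by gene length. From those counts, differences were fitted in R 4.3.3 by edgeR 4.0.16 (TMM factors 0.924 to 1.12, quasi-likelihood test, 8 groups in 1 fit, Benjamini-Hochberg over 21352 genes, threshold 0.05). DESeq2 1.42.0, other scalings and filters, single lines, a replicate block and each library left out were the alternatives. The edgeR fit without a block was tested on simulated counts, for the knockdown in BT549 alone. The blocked fit, the joint test between lines and DESeq2 were not tested in this way. The labels number the replicates and do not say what a number shares, so the pairing by number was taken from the data. Over 11767 genes with a mean of at least 5 CPM, the deviations of same-numbered libraries correlated at 0.336 to 0.854 in all 12 pairs. Those of differently numbered libraries of the 2 arms correlated at -0.597 to 0.155. Over all 21352 genes tested the ranges were 0.234 to 0.776 and -0.528 to 0.0969. Deviations from a mean of 3 libraries sum to 0 in each arm, so positive same-numbered values in part force the others down. Shares were tested by exact permutation within lines. Named were all members, ADAR, list genes past the threshold in the average (up to 3 per list) or a line (up to 2), the 3 most alike genes per member, and overlapping genes; other list genes are said to be named after their values were seen or for a sequence shown. Sequences come from GENCODE 29 transcripts on GRCh38. The members and gene lists were chosen with earlier results of these data known. Leaving out same-numbered pairs was added after seeing the data. Without molecular identifiers, reads are not independent molecules. Single genes of the lists are in part not reported here.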

Additional observations from a re-analysis of the deposited data

Results flagged for a closer look

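The change of NEAT1 under ADAR1 knockdown differed between the lines when the replicate number was a block: the joint F was 9.70 (edgeR, adjusted p = 0.0148), with -0.36 (log2) in HCC1806 and 0.02, 0.02 and -0.05 in BT549, MDAMB231 and MDAMB468. Without the block the joint F was 0.942 (edgeR, adjusted p = 1.00). All 3 HCC1806 pairs were lower in shADAR1, and the call was lost without either of the first 2 HCC1806 pairs.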

How the results depend on the processing

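With the replicate block, the number of members called rose from 0 to 1 in HCC1806, 0 to 1 in MDAMB231, 0 to 2 in the average and 0 to 1 for the difference between lines, and the pairing changed no other knockdown call. Other scalings, filters, DESeq2 and single-library omissions left these counts at 0, and the count of line differences at 26 to 30 against 28. Values near 0 changed sign (log2). Without structural and mitochondrial genes MALAT1 was 0.00228 and HNRNPK 0.00572 in HCC1806. NEAT1 in MDAMB231 was -0.00956 (DESeq2), -0.00890 (median-ratio factors), -0.000464 (line alone), -0.00381 (at least 10 counts in every library) and -0.00262 (without structural and mitochondrial genes). For BT549 minus MDAMB468, NEAT1 was -0.0174 (DESeq2), -0.0173 (median-ratio), -0.0338 (10 counts), -0.0241 (shNT libraries alone) and -0.0525 (upper quartile). PSPC1 was -0.0258, -0.0256, -0.0434, -0.0342 and -0.0642 in the same order, and -0.00418 without structural and mitochondrial genes. SFPQ, BT549 minus MDAMB231, was -0.00497 (10 counts), -0.00360 (without those genes) and -0.0497 (upper quartile), and HNRNPK, HCC1806 minus MDAMB231, was -0.0145 (upper quartile). The cause was not tested. Leaving out 1 library gave these ranges where the sign turned. BT549 had MALAT1 -0.0390 to 0.229, NEAT1 -0.145 to 0.134, PSPC1 -0.0213 to 0.0973 and RBM14 -0.101 to 0.0349. HCC1806 had HNRNPK -0.0581 to 0.0330, MALAT1 -0.108 to 0.0378 and SFPQ -0.0480 to 0.0883. MDAMB231 had MALAT1 -0.140 to 0.158, NEAT1 -0.175 to 0.261, PSPC1 -0.0590 to 0.0456 and RBM14 -0.0570 to 0.0343. MDAMB468 had MALAT1 -0.0350 to 0.119, NEAT1 -0.227 to 0.0905 and SFPQ -0.00572 to 0.0469. The average of MALAT1 ran from -0.0106 to 0.0730 and its share from -0.0178 to 0.0807. For shNT, BT549 minus MDAMB468, NEAT1 ran from -0.0709 to 0.163 and PSPC1 from -0.0406 to 0.0532, and NONO, HCC1806 minus MDAMB231, from -0.0752 to 0.0376. Every member had at least 608 counts in every library. With 3 libraries per group, changes inside a 95% interval were not excluded by the fit that gave it.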
